A study of Mus musculus with 6 samples.

Results

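Ribosome biogenesis and nucleolar genes were followed as a set of 47 genes, taken by symbol from a table of 54532 genes. All 47 were found, each with a single row. RNA had been sequenced from 6 samples of mouse primary macrophages of wild-type genotype. The 3 rmMETRNL samples were treated with rmMETRNL for 6 h in vitro and then challenged with the yeast Candida albicans for 6 h. The 3 vehicle samples received vehicle before the same 6 h challenge. Every sample therefore met the fungus, and no unchallenged sample entered the comparison. METRNL is meteorin-like, a secreted protein. The labels give neither the age of the mice nor the tissue the macrophages came from, and they do not say whether samples of a group were separate cultures or animals, so the p-values speak only to variation among the 6 libraries, part or all of which could be technical. The table's column names abbreviate the groups, and each direction below rests on reading the columns with the letter r as rmMETRNL.

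Ribosomes are assembled in the nucleolus, where RNA polymerase I transcribes a long precursor of the ribosomal RNAs. Small nucleolar ribonucleoproteins modify this precursor, box C/D particles by methylation and box H/ACA particles by pseudouridylation, and large assemblies of processing factors fold and cut it into the small and large subunit. The transcription factor MYC is known to drive many of these genes in growing cells, and in macrophages it is induced by growth factors and by inflammatory stimuli.

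The deposited values are FPKM, fragments per kilobase of gene scaled to sequencing depth, so that levels can be compared between genes. The reads behind the values sum to 14861916 to 15744878 in the rmMETRNL libraries and 13235001 to 18145733 in the vehicle libraries. All 8 macrophage markers checked (Adgre1, Cd68, Csf1r, Itgam, Lyz2, Fcgr1, Mertk and Cd14) had a mean of at least 1 FPKM, and their sum was 9381 to 9667 FPKM with rmMETRNL and 9613 to 10159 FPKM with vehicle. Singly, Cd14, Cd68 and Mertk were wholly lower with rmMETRNL, Adgre1 and Csf1r wholly higher, and Itgam, Lyz2 and Fcgr1 overlapped. Of 5 retina markers, checked because the extraction protocol speaks of retinas, 2 were listed at 0 in every library and 0 reached a mean of 1 FPKM. The sum of 6 T cell markers was 4.13 to 6.02 FPKM with rmMETRNL and 2.996 to 3.87 FPKM with vehicle, with no marker at 0 in every library. Only Trbc2 among them was wholly higher with rmMETRNL, while Trac, Lck, Cd3d, Cd3g and Cd3e overlapped. The part of this sum in the results below was not tested. Sums of 7 neutrophil, 4 B cell, 3 mast cell and 5 fibroblast and mesothelial markers, and of 6 proliferation genes, overlapped between the groups. In bulk RNA, fewer cells of a type and less RNA per cell cannot be told apart.

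None of the 45 members tested passed at an adjusted p of 0.05 (limma on log2(FPKM + 1), Benjamini-Hochberg adjustment over 9867 genes, lowest adjusted p among the members = 0.151). The same test called 0% of all genes in either direction, and limma voom on the recovered reads called 0 of the 45 members, against 0.405% of all genes higher and 0.213% lower. At an unadjusted p under 0.05 there were 3 members, Nol7, Nol12 and Wdr12, all lower with rmMETRNL. They made up 6.67% of the members, where 7.13% of all genes were lower and 7.54% higher at that level. Wdr12 reached the mean of 1 FPKM needed for testing only through vehicle (0.916 FPKM with rmMETRNL, 1.25 FPKM with vehicle). It also counts among the 5 members named next. In 5 members (11.1%), Nol7, Nol12, Wdr12, Rrp12 and Rrp1, the 3 rmMETRNL values all lay below the 3 vehicle values, beside 10.6% of all genes. In 0 members did they all lie above, beside 10.9% of all genes. The share that did not overlap and was lower was thus close to that of all genes in this fit.

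The sizes were small. Of the 45 members, 28 had a log2 fold change, rmMETRNL over vehicle, within 0.1 of 0, and 31 were negative and 14 positive, where 51.6% of all genes were negative and 48.4% positive. The median was -0.05 over the members and -0.01 over all genes tested. The 95% confidence intervals ran from -0.49 at the lowest bound (Gar1) to 0.57 at the highest (Myc), so no interval on the log2(FPKM + 1) scale reached a 1.5-fold difference, which is 0.58. This scale understates the change of low genes.

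The slightly negative median was sensitive to 1 library, rmMETRNL library 3. The mean of the members, as a difference from the vehicle mean of log2(FPKM + 1), was -0.05, -0.02 and -0.10 in rmMETRNL libraries 1, 2 and 3 and -0.01, 0.02 and -0.01 in vehicle libraries 1, 2 and 3. Each rmMETRNL library lay below every vehicle library, and library 3 lay furthest below. This separation was not particular to the members, since it also held over all 9867 genes tested, with smaller differences. Their means were -0.00312, -0.00679 and -0.0192 in rmMETRNL libraries 1, 2 and 3. In vehicle libraries 1, 2 and 3 they were -0.00307, 0.0016 and 0.00147. In 17 of the 45 members rmMETRNL library 3 held the lowest of the 6 values, and each other library did so in 4 to 8 members. The matching share over all genes was not computed, and over all genes tested the mean was also lowest in rmMETRNL library 3, at -0.02. Without this library the median was 0.00, with 22 members negative and 23 positive. Its values also followed gene length more than those of the others. The correlation across 9867 genes of its deviation with log2 gene length was 0.20, while the other rmMETRNL libraries had -0.08 and -0.03 and the vehicle libraries 0.05, -0.03 and -0.14. With each library's trend with gene length removed, the median over the members was -0.04.

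**Figure D1:**
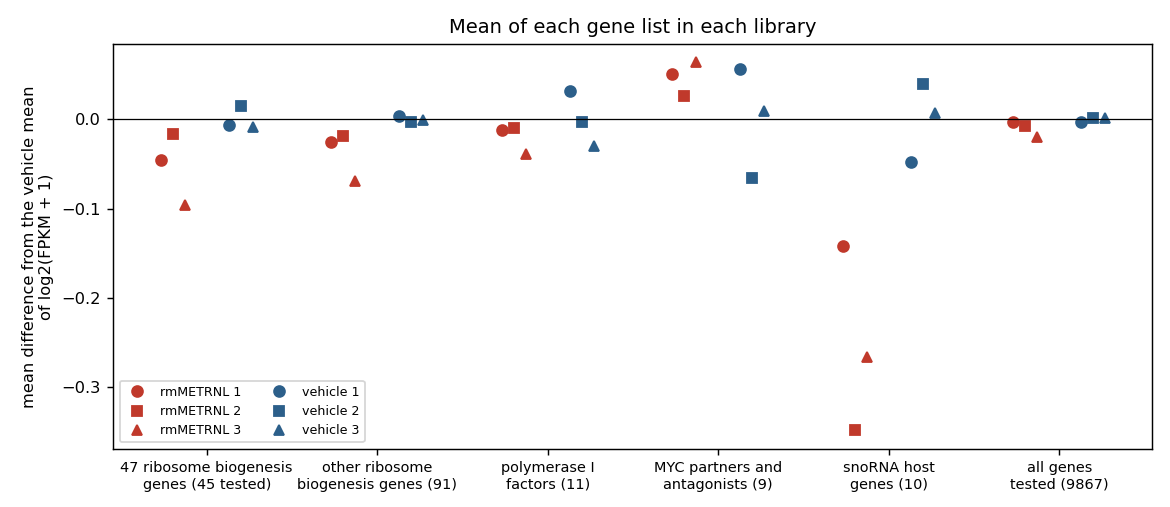
Mean of each gene list in each library, as the difference from the vehicle mean on the log2(FPKM + 1) scale, for 45 tested ribosome biogenesis genes, 4 related lists and all 9867 genes tested. Red points are rmMETRNL libraries 1, 2 and 3 and blue points are vehicle libraries 1, 2 and 3. For the 45 genes rmMETRNL library 3 lies lowest, at -0.10, and the snoRNA host genes lie between -0.35 and -0.14 in the rmMETRNL libraries.

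Myc (chromosome 15, 61985391 to 61990374, GRCm38) encodes the transcription factor named above. It had 3.43, 3.99 and 4.94 FPKM in the rmMETRNL libraries, against 2.79, 3.22 and 3.98 FPKM in the vehicle libraries. The groups overlapped, since vehicle library 3 was level with rmMETRNL library 2. The log2 fold change was 0.24 (SE 0.14, adjusted p = 0.477 in limma), the highest among the members, and the reads numbered 145 to 199 and 115 to 197. Of 9 tested genes for MYC partners and antagonists, 0 passed, with a median log2 fold change of 0.04. Max, the obligate dimer partner of MYC, had 25.1, 26.1 and 24.1 FPKM with rmMETRNL and 22.05, 21.001 and 22.9 FPKM with vehicle. All 3 of its rmMETRNL values were above the vehicle values, and it did not pass (log2 fold change 0.18, SE 0.05, adjusted p = 0.25 in limma). It was the only one of the 9 whose groups did not overlap (11.1%), a share close to the 10.9% of all genes that were higher without overlap. Mxd1, which encodes a competitor of MYC for MAX, had 14.3 ± 1.07 FPKM with rmMETRNL and 13.01 ± 0.183 FPKM with vehicle (mean ± SD, n = 3 each, as for all such values below). Fbxw7, whose product targets MYC for degradation, had 2.38 ± 0.219 and 2.07 ± 0.363 FPKM, and the repressor gene Mnt had 9.75 ± 0.306 and 9.23 ± 0.861 FPKM, rmMETRNL before vehicle.

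MYC and MAX are known to bind the E-box CACGTG, a palindrome that reads the same on both strands. It was searched in the 250 bases before the start of each gene (RefSeq, GRCm38.p6), where 40 of the 47 members had an entry. It was present in 3 of the 40 members (7.5%), Nop2, Nol11 and Utp18, beside 6.86% of all 27025 genes with an entry and 763 of the 6955 that were also tested here. The GC box GGGCGG, on either strand, was present in 67.5% of members, 65.9% of the tested genes and 35.4% of all genes. The sequence CCAAT, on either strand, was present in 25.0%, 39.8% and 37.5% in the same order. The E-box and GC box do not overlap in the stretches shown. The last 100 bases before the start are given for the 3 members with an E-box, because Myc itself was measured, and for Nol7 and Nol12, the members with the lowest p, with the E-box, and the GC box on either strand, in capitals. These letters describe the window only.
Nop2 (chr6:125131783-125131882, plus strand): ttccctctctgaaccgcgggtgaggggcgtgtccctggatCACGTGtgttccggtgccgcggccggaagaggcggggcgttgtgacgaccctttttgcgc
Nol11 (chr11:107189382-107189481, minus strand): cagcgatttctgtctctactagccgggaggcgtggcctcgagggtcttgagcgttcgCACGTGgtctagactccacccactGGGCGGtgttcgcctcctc
Utp18 (chr11:93885767-93885866, minus strand): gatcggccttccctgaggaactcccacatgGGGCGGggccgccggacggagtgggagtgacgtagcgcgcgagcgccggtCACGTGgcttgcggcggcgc
Nol7 (chr13:43398276-43398375, plus strand): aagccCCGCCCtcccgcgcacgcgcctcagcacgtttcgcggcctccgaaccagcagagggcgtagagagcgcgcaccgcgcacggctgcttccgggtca
Nol12 (chr15:78934833-78934932, plus strand): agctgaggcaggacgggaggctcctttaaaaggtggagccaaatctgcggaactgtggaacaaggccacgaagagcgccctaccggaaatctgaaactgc

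Of the 3 members with this E-box, Nop2, the gene of a ribosomal RNA methyltransferase of the large subunit, had 6.71 ± 0.409 FPKM with rmMETRNL and 6.66 ± 0.866 FPKM with vehicle. Nol11 had 2.26 ± 0.204 and 2.60 ± 0.474 FPKM in the same order of groups, and Utp18 had 11.8 ± 1.28 and 12.2 ± 0.375 FPKM. Their groups all overlapped, with log2 fold changes of 0.01, -0.14 and -0.05, and 13.1% of the 31-base words of Nol11 occur elsewhere, among them in Gm11715.

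The subunits of RNA polymerase I were among the lowest members, with the exception of Polr1c, whose product also serves in RNA polymerase III. Polr1c had 28.3, 31.1 and 26.8 FPKM with rmMETRNL and 30.4, 31.9 and 31.002 FPKM with vehicle. The rmMETRNL library 2 value lay within the vehicle range and the other 2 lay below it (log2 fold change -0.11, SE 0.06, adjusted p = 0.454 in limma). Polr1a, which encodes the largest subunit, had 1.01, 1.11 and 1.10 FPKM with rmMETRNL and 1.23, 1.23 and 0.944 FPKM with vehicle, so the groups overlapped (log2 fold change -0.04, SE 0.10). Polr1b, the gene of the second catalytic subunit, and Polr1e had means under 1 FPKM and were not tested. Polr1b had 0.598, 0.461 and 0.488 FPKM with rmMETRNL and 0.580, 0.490 and 0.596 FPKM with vehicle, from 42 to 54 and 38 to 63 reads. Polr1e had 0.550 ± 0.0888 and 0.685 ± 0.122 FPKM, rmMETRNL before vehicle.

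Among 11 polymerase I genes and factors outside the members, 0 passed, with a median log2 fold change of -0.03. In each direction 1 did not overlap (9.09%), beside 10.6% of all genes lower and 10.9% higher, so these shares were close to those of all genes. Cd3eap, the gene of a polymerase I subunit, had 10.3, 9.001 and 10.8 FPKM with rmMETRNL and 8.32, 7.93 and 6.94 FPKM with vehicle. All its rmMETRNL values were above the vehicle values (log2 fold change 0.34, SE 0.09, adjusted p = 0.238 in limma). Ubtf, whose product opens the ribosomal RNA genes for transcription, had 4.28, 3.87 and 3.97 FPKM with rmMETRNL and 5.33, 5.16 and 4.56 FPKM with vehicle. All its rmMETRNL values were below (log2 fold change -0.25, SE 0.07, adjusted p = 0.244 in limma). Taf1a had 1.61 ± 0.340 and 2.13 ± 0.159 FPKM, and Rrn3, an initiation factor, 7.33 ± 0.389 and 8.07 ± 0.639 FPKM, rmMETRNL before vehicle.

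Box C/D genes showed no separation: 4 of 4 were negative, though Fbl and Nop56 turned positive with TPM scaling (0.01 and 0.00), and 0 of 4 were without overlap. Fbl encodes fibrillarin, the methyltransferase of these particles. It had 12.98, 14.2 and 11.7 FPKM with rmMETRNL and 12.7, 13.3 and 12.9 FPKM with vehicle. The rmMETRNL values lay inside, above and below the vehicle range. Nop56, a core protein, had 6.95, 6.00 and 5.56 FPKM with rmMETRNL and 5.96, 5.49 and 7.33 FPKM with vehicle. All its rmMETRNL values lay within the vehicle range. Its partner Nop58 had 2.63, 3.11 and 2.72 FPKM with rmMETRNL and 2.76, 3.29 and 3.10 FPKM with vehicle, again overlapping. Rrp9, a protein of the U3 particle, had 3.45 ± 0.344 and 3.84 ± 0.529 FPKM, rmMETRNL before vehicle. The log2 fold changes were -0.01 for Fbl and Nop56, -0.08 for Nop58 and -0.12 for Rrp9, and the count of Nop56 is uncertain because 24.1% of its 31-base words are found elsewhere in the transcriptome.

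The box H/ACA genes, for the pseudouridylation particles, were also all negative (4 of 4) and overlapping. Nop10, a small core protein, had 18.6, 16.9 and 15.4 FPKM with rmMETRNL and 18.3, 19.1 and 22.4 FPKM with vehicle. Its rmMETRNL library 1 lay just inside the vehicle range (log2 fold change -0.21, SE 0.10, adjusted p = 0.363 in limma). Nhp2 had 41.5, 39.9 and 40.9 FPKM with rmMETRNL and 41.5, 42.5 and 43.8 FPKM with vehicle, where rmMETRNL library 1 met vehicle library 1 (log2 fold change -0.06, SE 0.04). Dkc1, the gene of the pseudouridine synthase dyskerin, had 1.01, 1.252 and 1.54 FPKM with rmMETRNL and 1.67, 1.69 and 1.05 FPKM with vehicle. This rested on 65 to 104 reads per library and the groups overlapped (log2 fold change -0.12, SE 0.15). Gar1 had 4.78 ± 1.32 and 4.97 ± 0.741 FPKM, rmMETRNL before vehicle.

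**Figure D2:**
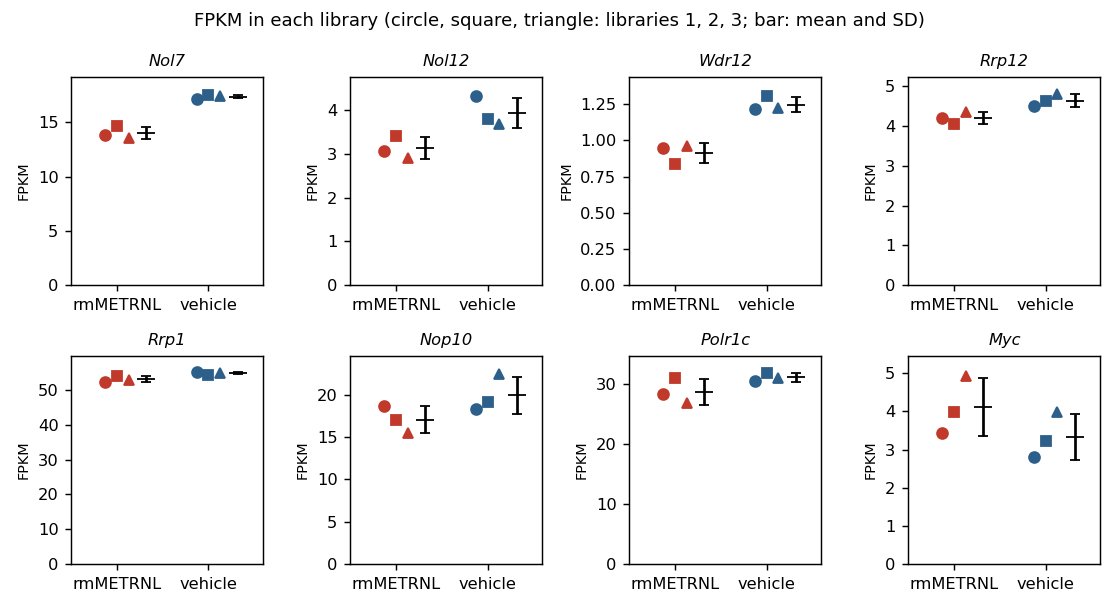
FPKM of 8 members in each library, with the 3 rmMETRNL libraries in red on the left of each panel, the 3 vehicle libraries in blue on the right, and black bars for the mean and SD of each group. Nol7, Nol12, Wdr12, Rrp12 and Rrp1 do not overlap between groups, and Nop10, Polr1c and Myc do.

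Within the 14 genes of the small subunit processome, the assembly that forms on the 5' part of the precursor, 9 were negative, 5 positive and 1 did not overlap. Nol7 (ENSMUSG00000063200, chromosome 13, 43398390 to 43407097, GRCm38) encodes a nucleolar protein that in human cells takes part in early 18S maturation. It had 13.8, 14.6 and 13.6 FPKM with rmMETRNL and 17.2, 17.5 and 17.4 FPKM with vehicle, from 554 to 632 and 644 to 874 reads. The gap between the groups was wider than the range within either, and the log2 fold change was -0.29 (SE 0.05, adjusted p = 0.151 in limma and 0.0567 in voom). Of its exon bases, 16.5% are shared with Ranbp9 on the other strand, and without a stated strand setting those reads cannot be told apart.

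Nol10 had 3.22, 3.97 and 4.15 FPKM with rmMETRNL and 4.43, 4.09 and 5.14 FPKM with vehicle. The groups met only at rmMETRNL library 3 and vehicle library 2 (log2 fold change -0.22, SE 0.11, adjusted p = 0.397 in limma). Utp14a had 10.1, 9.32 and 8.16 FPKM with rmMETRNL and 10.3, 10.2 and 9.80 FPKM with vehicle, with rmMETRNL library 3 lowest. It shares 11.5% of its exon bases with genes on the other strand. Heatr1, which acts early in the processome and supports transcription of the precursor, had 4.87, 4.64 and 5.10 FPKM with rmMETRNL and 5.53, 5.65 and 4.71 FPKM with vehicle. Utp20 had 2.31, 2.09 and 2.23 FPKM with rmMETRNL and 2.19, 2.18 and 2.16 FPKM with vehicle, and both of these genes overlapped between the groups. The log2 fold changes were -0.13 for Utp14a, -0.10 for Heatr1 and 0.02 for Utp20.

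The remaining processome genes all overlapped. Utp4 had 15.8 ± 0.693 FPKM with rmMETRNL and 15.01 ± 0.984 FPKM with vehicle, and Utp15 had 9.38 ± 0.163 and 8.90 ± 0.848 FPKM, both with a log2 fold change of 0.07. Nop14 had 25.9 ± 1.23 and 26.3 ± 1.57 FPKM, Wdr43 10.3 ± 0.887 and 10.4 ± 0.791 FPKM, and the helicase gene Ddx10 7.03 ± 0.713 and 6.92 ± 0.666 FPKM. Utp6 had 6.59 ± 0.187 and 6.36 ± 0.467 FPKM and Nol6 1.82 ± 0.380 and 1.89 ± 0.459 FPKM. In each of these pairs rmMETRNL comes before vehicle, and the difference was smaller than 1 SD of at least 1 group.

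Of the 6 genes that act in later small subunit steps, Rrp12, known in yeast for export of pre-ribosomes, did not overlap (chromosome 19, 41862852 to 41896153, GRCm38). It had 4.22, 4.06 and 4.36 FPKM with rmMETRNL and 4.49, 4.62 and 4.81 FPKM with vehicle. The highest rmMETRNL value was close to the lowest vehicle value, and the log2 fold change was -0.11 (SE 0.06, adjusted p = 0.413 in limma). Ltv1, an assembly factor of the cytoplasmic pre-40S particle, had 11.4, 12.2 and 11.5 FPKM with rmMETRNL and 10.6, 10.8 and 11.4 FPKM with vehicle. Its values were mostly higher with rmMETRNL, with vehicle library 3 above rmMETRNL library 1 (log2 fold change 0.09, SE 0.06). Nob1, the endonuclease that makes the last cut of 18S ribosomal RNA, had 4.47, 4.68 and 3.98 FPKM with rmMETRNL and 4.03, 5.47 and 3.91 FPKM with vehicle, so all rmMETRNL values lay inside the vehicle range.

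Nop9 had 7.25, 6.14 and 5.77 FPKM with rmMETRNL and 7.54, 6.89 and 6.59 FPKM with vehicle (log2 fold change -0.12, SE 0.09). Its groups overlapped, and 29.9% of its exon bases are shared with other genes, mostly Cideb on the other strand. Tsr1 had 2.17 ± 0.0823 and 2.30 ± 0.165 FPKM, rmMETRNL before vehicle, and shares 32.3% of its exon bases, mostly with Srr. Bysl had 2.05 ± 0.534 and 2.06 ± 0.610 FPKM in the same order, and shares 10.2% of its words, mostly with Ccnd3.

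Of the 10 large subunit genes, 6 were negative and 4 positive, and 3 were lower without overlap, beside 10.6% of all genes. Whether this share differs from that of the other roles was not tested. Nol12 (ENSMUSG00000033099, chromosome 15, 78934933 to 78943638), whose yeast counterpart is an exonuclease, had 3.07, 3.41 and 2.92 FPKM with rmMETRNL and 4.34, 3.81 and 3.70 FPKM with vehicle. All rmMETRNL values were below the lowest vehicle value (log2 fold change -0.26, SE 0.08, adjusted p = 0.263 in limma). Wdr12 (ENSMUSG00000026019, chromosome 1, 60069785 to 60098645) encodes a member of the PeBoW complex, which is needed for the large subunit. It had 0.947, 0.837 and 0.964 FPKM with rmMETRNL and 1.21, 1.31 and 1.22 FPKM with vehicle, from 157 to 176 and 209 to 266 reads. The mean was 26.6% lower with rmMETRNL as a ratio of FPKM (percent difference -26.6), the largest relative difference among the members, and the log2 fold change was -0.23 (SE 0.09, adjusted p = 0.326 in limma). Other genes hold 14.2% of its 31-base words, so its count is uncertain. All its rmMETRNL values lay under 1 FPKM, and it reached the limit for testing only through vehicle.

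The other PeBoW genes did not share this difference in these values. Bop1 had 9.75, 9.27 and 8.94 FPKM with rmMETRNL and 11.6, 9.56 and 9.47 FPKM with vehicle, overlapping at rmMETRNL library 1 (log2 fold change -0.11, SE 0.08). Pes1 had 16.3, 15.6 and 15.1 FPKM with rmMETRNL and 16.02, 14.8 and 15.7 FPKM with vehicle (log2 fold change 0.02, SE 0.05), and other genes, such as Gm5910, hold 36.0% of its words. Whether Wdr12 differs from these 2 was not tested.

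Rrp1 (chromosome 10, 78400384 to 78413043), named after its values were seen because it completes the count of 5, had 52.5, 54.2 and 52.9 FPKM with rmMETRNL and 55.3, 54.5 and 55.0 FPKM with vehicle. The groups were apart by a narrow gap, and the log2 fold change was -0.05 (SE 0.04, adjusted p = 0.623 in limma). Ebna1bp2 had 7.06, 7.57 and 6.30 FPKM with rmMETRNL and 8.38, 7.54 and 7.90 FPKM with vehicle, meeting at rmMETRNL library 2 and vehicle library 2 (log2 fold change -0.17, SE 0.08, adjusted p = 0.371 in limma). Nop16 was higher on average, with 11.5, 13.7 and 11.2 FPKM with rmMETRNL and 10.9, 11.7 and 9.73 FPKM with vehicle, and also overlapped (log2 fold change 0.16, SE 0.09). Nol8 had 1.16 ± 0.0625 and 1.32 ± 0.154 FPKM, and Nol9, the gene of a polynucleotide kinase of the large subunit RNA pathway, 2.698 ± 0.0727 and 2.695 ± 0.371 FPKM, rmMETRNL before vehicle.

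The 4 nucleolar proteins with several functions included the most abundant member, and their groups all overlapped. Npm1, the gene of the histone and ribosome chaperone nucleophosmin, was the highest member. It had 124, 132 and 117 FPKM with rmMETRNL and 118, 125 and 119 FPKM with vehicle, so the rmMETRNL values spanned the vehicle range (log2 fold change 0.04, SE 0.06). Other genes, among them the gene model Gm9118, hold 45.5% of its words, so its count is uncertain. Ncl, the gene of nucleolin, had 39.0, 41.1 and 34.8 FPKM with rmMETRNL and 37.4, 42.6 and 39.9 FPKM with vehicle (log2 fold change -0.06, SE 0.08). Only rmMETRNL library 3 lay below the vehicle range. Gnl3, which encodes nucleostemin, had 8.76, 9.96 and 8.74 FPKM with rmMETRNL and 9.32, 9.80 and 10.04 FPKM with vehicle (log2 fold change -0.08, SE 0.07). The RNA helicase gene Ddx21 had 30.98 ± 0.833 and 30.2 ± 1.09 FPKM, rmMETRNL before vehicle. By mean FPKM over the 6 libraries the members spanned 228-fold, with a median of 6.69 FPKM, and 16 of the 47 had at least 10 FPKM.

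**Figure D3:**
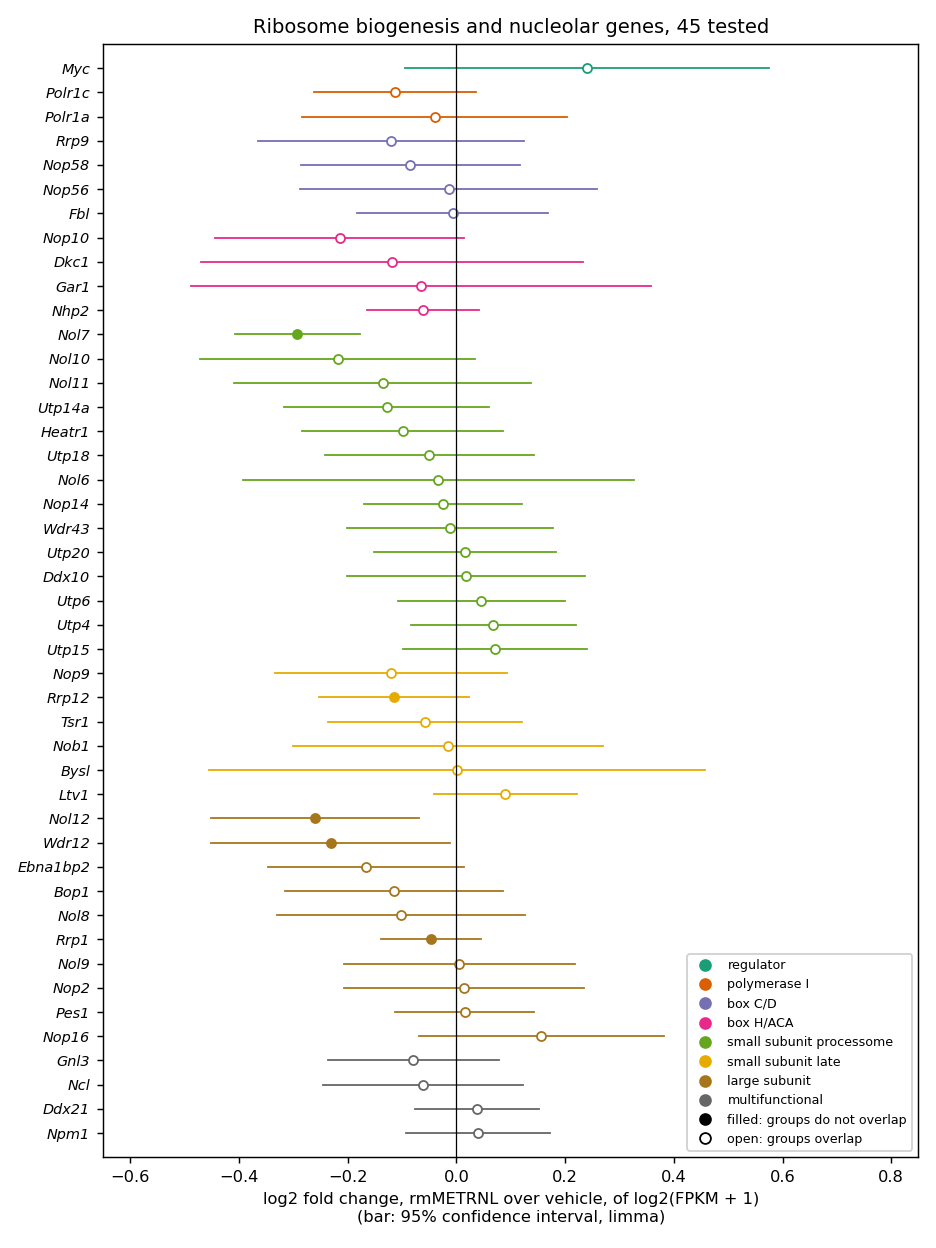
Log2 fold change of log2(FPKM + 1), rmMETRNL over vehicle, for the 45 tested members grouped by role, with the 95% confidence interval from limma as a bar. Filled points mark the 5 members whose groups do not overlap, all left of 0, and the intervals of 3 members (Nol7, Nol12 and Wdr12) leave out 0.

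A wider list of 98 other ribosome biogenesis genes, of which 91 were tested, had a median log2 fold change of -0.03, with 61 negative and 30 positive. None passed the adjusted threshold (lowest adjusted p = 0.189 in limma), 7 were lower and 3 higher at an unadjusted p under 0.05, beside 7.13% and 7.54% of all genes, and voom called 0. Groups did not overlap in 13 genes that were lower (14.3%) and 5 that were higher (5.49%) with rmMETRNL, beside 10.6% and 10.9% of all genes. Without rmMETRNL library 3 the median was -0.01. Nufip1, whose product helps assemble box C/D particles, had 13.4, 12.2 and 11.9 FPKM with rmMETRNL and 15.3, 15.9 and 15.2 FPKM with vehicle. Pelp1, of a large subunit maturation complex, had 3.23 ± 0.361 and 4.12 ± 0.219 FPKM, Nle1 1.04 ± 0.248 and 1.68 ± 0.197 FPKM, and Noc4l 5.78 ± 0.586 and 7.14 ± 0.603 FPKM, rmMETRNL before vehicle. These 4 had the smallest p in the list, and all 4 were wholly lower with rmMETRNL.

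Small nucleolar RNAs are cut from introns of host genes, some coding and some noncoding. Of 10 tested noncoding or short host genes, 9 were negative and 1 positive, with a median log2 fold change of -0.20. None passed (lowest adjusted p = 0.238 in limma, 0 called by voom). At an unadjusted p under 0.05 in limma, 6 were lower and 0 higher, beside 7.13% and 7.54% of all genes. In 6 of the 10 (60.0%) every rmMETRNL library was lower than every vehicle library, beside the 10.6% of all genes given above. Among these 6, Snhg17 reached the limit for testing only through its vehicle values. The list was chosen with earlier results of these data known, so this share is a description only. The list mean was -0.14, -0.35 and -0.27 in rmMETRNL libraries 1, 2 and 3 and -0.05, 0.04 and 0.01 in the vehicle libraries. Without rmMETRNL library 3 the count was again 6 of 10, with 15.0% of all genes lower in that setting. With each library's trend with gene length removed it was 4 of 10, with 10.3% of all genes.

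Snhg8 had 5.81, 5.08 and 5.85 FPKM with rmMETRNL and 9.05, 13.9 and 7.47 FPKM with vehicle, with vehicle library 2 well above the rest (log2 fold change -0.72, SE 0.20, adjusted p = 0.238 in limma). Snhg6 had 14.03, 12.8 and 13.1 FPKM with rmMETRNL and 14.6, 17.2 and 16.4 FPKM with vehicle. Epb41l4aos had 10.8, 6.96 and 14.1 FPKM with rmMETRNL and 14.9, 15.7 and 16.2 FPKM with vehicle, with a wide spread among the rmMETRNL libraries. Gas5, a host of many box C/D RNAs whose spliced transcript is known to be degraded when translated, had 5.87, 6.36 and 5.25 FPKM with rmMETRNL and 6.37, 7.34 and 6.92 FPKM with vehicle. Its groups were separated by a very narrow gap. Snhg17 (0.833 ± 0.195 and 1.22 ± 0.0283 FPKM) and Snhg5 (2.03 ± 0.0595 and 2.44 ± 0.176 FPKM), named after their values were seen to complete the 6, were also lower with rmMETRNL. Snhg8, Snhg6 and Gas5 share 15.2%, 11.1% and 17.8% of their exon bases with other genes, the first mostly with the small nucleolar RNA gene Snora24, and reads per library were as few as 47 for Epb41l4aos and 51 for Snhg5.

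Among the members, 7 protein-coding genes (Dkc1, Gnl3, Ncl, Nop56, Nop58, Tsr1 and Wdr43) hold 21 annotated small nucleolar RNA genes within their span on the same strand. Of these 21, 12 had 0 reads in every library and the highest count in any library was 7, so the small RNAs themselves could not be followed in these libraries. None of these 7 host members was among the 5 that did not overlap.

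**Figure D4:**
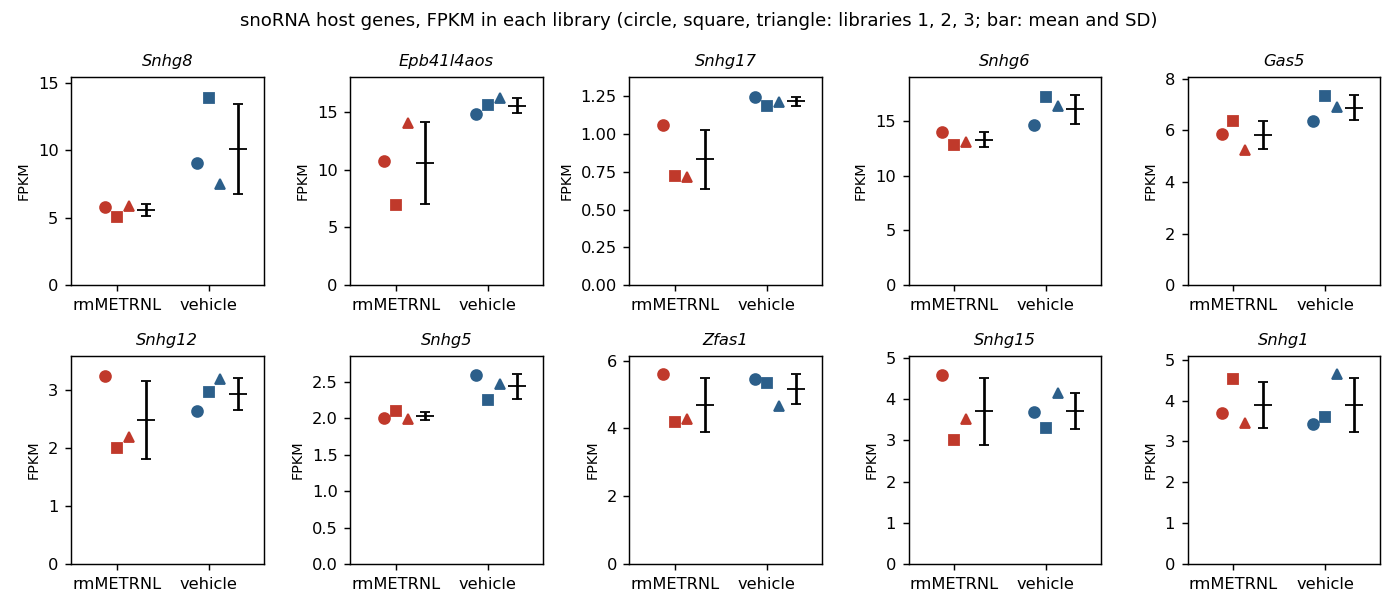
FPKM of the 10 tested small nucleolar RNA host genes in each library, with the 3 rmMETRNL libraries in red on the left, the 3 vehicle libraries in blue on the right, and black bars for mean and SD. In Snhg8, Epb41l4aos, Snhg17, Snhg6, Gas5 and Snhg5 the rmMETRNL values all lie below the vehicle values, and Snhg12, Zfas1, Snhg15 and Snhg1 overlap.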

How the data were processed

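RNA of 3 rmMETRNL and 3 vehicle samples was measured in FPKM, in a table that the authors deposited with gene lengths. The submitters' processing notes list GRCm38 and mm10. Nothing in the sources used here gives the aligner, counter or strand setting. Multiplied by gene length, 100% of the values resolved into whole reads (tolerance 0.05 reads), which gave depth. Median-of-ratios size factors were equal in all 6 libraries (1.004), so that scaling was already in the deposited values. The 9867 genes averaging 1 FPKM or more entered limma (version 3.58.1, R 4.3.3, trended prior variance) as log2(FPKM + 1). Tests were two-sided, Benjamini-Hochberg adjusted at 0.05, without a replicate block, and the code was tested on simulated data. Limma voom on the recovered reads, with library size summed over these genes, was an alternative, as were TPM, other filters and pseudocounts, array weights, removal of a length trend and leaving out each library. Shared exon bases and 31-base words came from GENCODE M21, whose gene bounds matched 98.3% of those in the table. Members and lists were chosen with earlier results of these data known. Library values are given for the 16 members with the smallest p, for 12 more fixed by role and for Rrp1, added after its values were seen, other members as means, and from each other list up to 4 genes with the smallest p.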

Additional observations from a re-analysis of the deposited data

How the results depend on the processing

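Both groups carry replicate numbers 1 to 3, but deviations of same-numbered libraries correlated at only -0.02, 0.01 and -0.05 across genes, so the numbers were not taken as a pairing. With the replicate block, 0 genes and 0 members were called. The member median stayed at -0.05, which was fixed in advance because both groups carry the same replicate numbers. Under the 17 alternatives fixed at the outset, and without the members sharing over 10% of exon bases or words (chosen after seeing the data), 0 members were called. Over all genes, 5 were called with no filter, 1 each with TPM, array weights and the length trend removed, and 61 with voom. The count of members lower without overlap, 5 of 45, was 2 of 27 with a minimum of 5 FPKM (12.2% of all genes in that setting). It was 3 without the 10 members that share sequence. It was 5 with TPM, 6 with voom and 7 with the length trend removed, beside 8.35%, 11.4% and 10.3% of all genes. With a library left out, where fewer values must separate, it was 7 to 10 (7 of 45 without rmMETRNL library 3, beside 15.0% of all genes). The count higher without overlap, 0, was 1 with TPM or the length trend removed and 0 to 4 with a library left out. The share of all genes was not computed for these higher counts, nor for the other libraries left out. With a library left out, the member median ran from -0.0701 to 0.0040 (the last without rmMETRNL library 3), that of the other biogenesis genes from -0.0398 to -0.0094 and that of the polymerase I factors from -0.0756 to 0.0053. With a minimum of 5 FPKM the polymerase I factors had 0.1179 and the host genes -0.4076, over 4 host genes. Of 28 genes recomputed singly, 21 kept their sign in each alternative that tested them. With other filters, an untrended prior variance or the replicate block, each single-gene log2 fold change is unchanged by construction. Median-of-ratios scaling left it almost unchanged, as the size factors were equal. These settings therefore say nothing about the sign. The sign turned with TPM for Fbl (0.0136), Nop56 (0.0045) and Nob1 (0.0028), with array weights for Fbl (0.0216) and Nob1 (0.0130), and with the length trend removed for Utp20 (-0.0107). With a library left out the log2 fold change ran from -0.1131 to 0.0040 for Ncl, -0.0025 to 0.0841 for Npm1, -0.0701 to 0.0608 for Fbl, -0.0913 to 0.0888 for Nop56, -0.0079 to 0.0436 for Utp20, -0.0138 to 0.0409 for Pes1 and -0.0882 to 0.1115 for Nob1. The cause of these shifts was not tested. Depth limits the lowest members most, with 27 to 63 reads per library for Polr1b and Polr1e.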
